A study of Mus musculus with 14 samples.

Results

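RNA polymerase II phosphorylated at serine 2 of its C-terminal repeat domain (S2P) was compared between wild-type (WT) and Chd7 knockout (KO) cells along 19304 protein-coding genes. These were all genes of at least 2 kb among 21887 protein-coding genes on chromosomes 1 to 19, X and Y in the RefSeq table of GRCm38.p6. The value of a gene is its S2P coverage, the percentage of its length that lies under the peaks the authors deposited, and a difference of coverage is given in percentage points, KO minus WT.

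The cells were G1ER, a line of mouse erythroblasts without endogenous GATA1 that carries a GATA1 fusion activated by estradiol. The WT cells and the Chd7-/- cells were of this 1 line and were grown with erythropoietin and stem cell factor. The labels mention estradiol only for a 48 h differentiation assay and do not say whether the cells used for ChIP-seq received it, nor from how many knockout clones they came. S2P was immunoprecipitated in 4 samples, 2 replicates per genotype, and 1 peak list per genotype was named for both replicates, with no statement of how they were combined. So there is no spread between replicates, no difference was tested, and each value below compares 1 list with 1 list.

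Polymerase that has left the promoter is phosphorylated at serine 2 by CDK9, CDK12 and CDK13, and the mark builds up toward the end of the gene, where it recruits factors for cleavage and polyadenylation of the transcript. Coverage by S2P therefore follows transcribed gene bodies rather than promoters. CHD7 is an ATPase of the chromodomain helicase family that moves nucleosomes and is found at enhancers and promoters. Chd7 itself (chromosome 4, 8690402 to 8868449, 178 kb) had 0% coverage in both lists, so the lists hold no check of the genotype, and the assignment of lists to genotypes rests on the labels' description.

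The WT list held 163620 peaks covering 115.4 Mb and the KO list 165206 peaks covering 123.2 Mb. Median widths were 324 and 327 bp, median summits rested on 34 and 35 fragments, and 82.4% of the covered bases lay in protein-coding genes in both lists. Total read depth is not recorded in the lists, so it is unknown. Of the WT peaks 80.4% (exact 95% interval 80.2 to 80.6, counting error only) overlapped a KO peak by at least 1 bp, and of the KO peaks 73.7% (73.5 to 73.9). Counting only overlaps of at least 50% of both peaks, the shares were 44.5% and 44.1%. Among the strongest 10% of peaks the shares were 99.98% and 99.93%, and among the weakest 10% 58.6% and 49.0%. Peaks of at least 10 kb numbered 784 in KO and 643 in WT. Of 8 erythroid marker genes, 7 had coverage, among them Tfrc, the transferrin receptor (99.2% in WT and 98.6% in KO), Klf1 (75.2% and 83.3%) and Epor, the erythropoietin receptor (63.2% and 61.1%), while Slc4a1, the anion exchanger of mature red cells, had 0% in both. Lymphoid markers were at 0 in 24 of 27 cases, myeloid markers in 18 of 21 and markers of other tissues in 27 of 31, in both lists alike.

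Along the gene, S2P was lower in KO near the start and higher in KO toward the end. This was measured in 2465 genes with coverage, a known strand and no other protein-coding gene within 5 kb. In the first 10% of the gene mean coverage was 20.5% in WT and 18.3% in KO, a difference of -2.22 points. In the last 10% it was 47.8% in WT and 51.9% in KO, a difference of 4.17 points. In the first 2 kb past the annotated end, where polymerase runs on after the polyadenylation site, it was 65.6% and 68.2%. In the 5 kb before the start the lists differed by 0.53 points.

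The lower values near the start reached about as far as 10 kb into the gene. In the 1316 of these genes that are at least 30 kb long, coverage in the first 1 kb was 13.9% in WT and 12.1% in KO. Between 2 and 5 kb from the start it was 20.2% and 16.3%, with 501 genes lower in KO and 184 higher. Between 5 and 10 kb it was 20.4% and 16.8%, with 539 genes lower and 214 higher. Between 10 and 15 kb the direction turned, with 17.7% and 18.2%. Counted back from the end, KO was higher in each of the 5 windows, by 2.81 points at 10 to 15 kb before it and by 4.06 points in the last 1 kb.

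The same order was seen in the height of the peaks. In these genes, summits of peaks that paired off singly between the lists (one-to-one summits) were compared by their fragment numbers, each divided by the lowest background of its list. In the first 20% of the gene 3590 such summits had a median log2 ratio of KO over WT of -0.05 (quartiles -0.23 and 0.14). In the following 4 parts of the same length, in order toward the end, the medians were 0.06, 0.08, 0.09 and 0.09. The local background at the same summits differed by a median log2 of -0.05 in the first 20% and 0.00 in each of the others, and its part in the coverage difference was not tested. Of the 2465 genes, 660 were lower in KO over their first 50% and higher over the rest, and 159 were the reverse. Both parts were higher in 705 genes and lower in 299, and in 642 a part did not differ. Over the first 50% 1046 genes were lower and 989 higher, and over the rest 592 were lower and 1636 higher. On each of the 19 chromosomes with at least 20 of the 2465 genes, the part nearer the end gained more coverage than the part nearer the start, by 1.9 to 5.3 points on average. With the weakest KO peaks left out until both lists covered the same length, the first 10% of the gene differed by -3.83 points and the last 10% by 2.29. This setting takes away KO peaks alone and can move both values only downward.

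**Figure D1:**
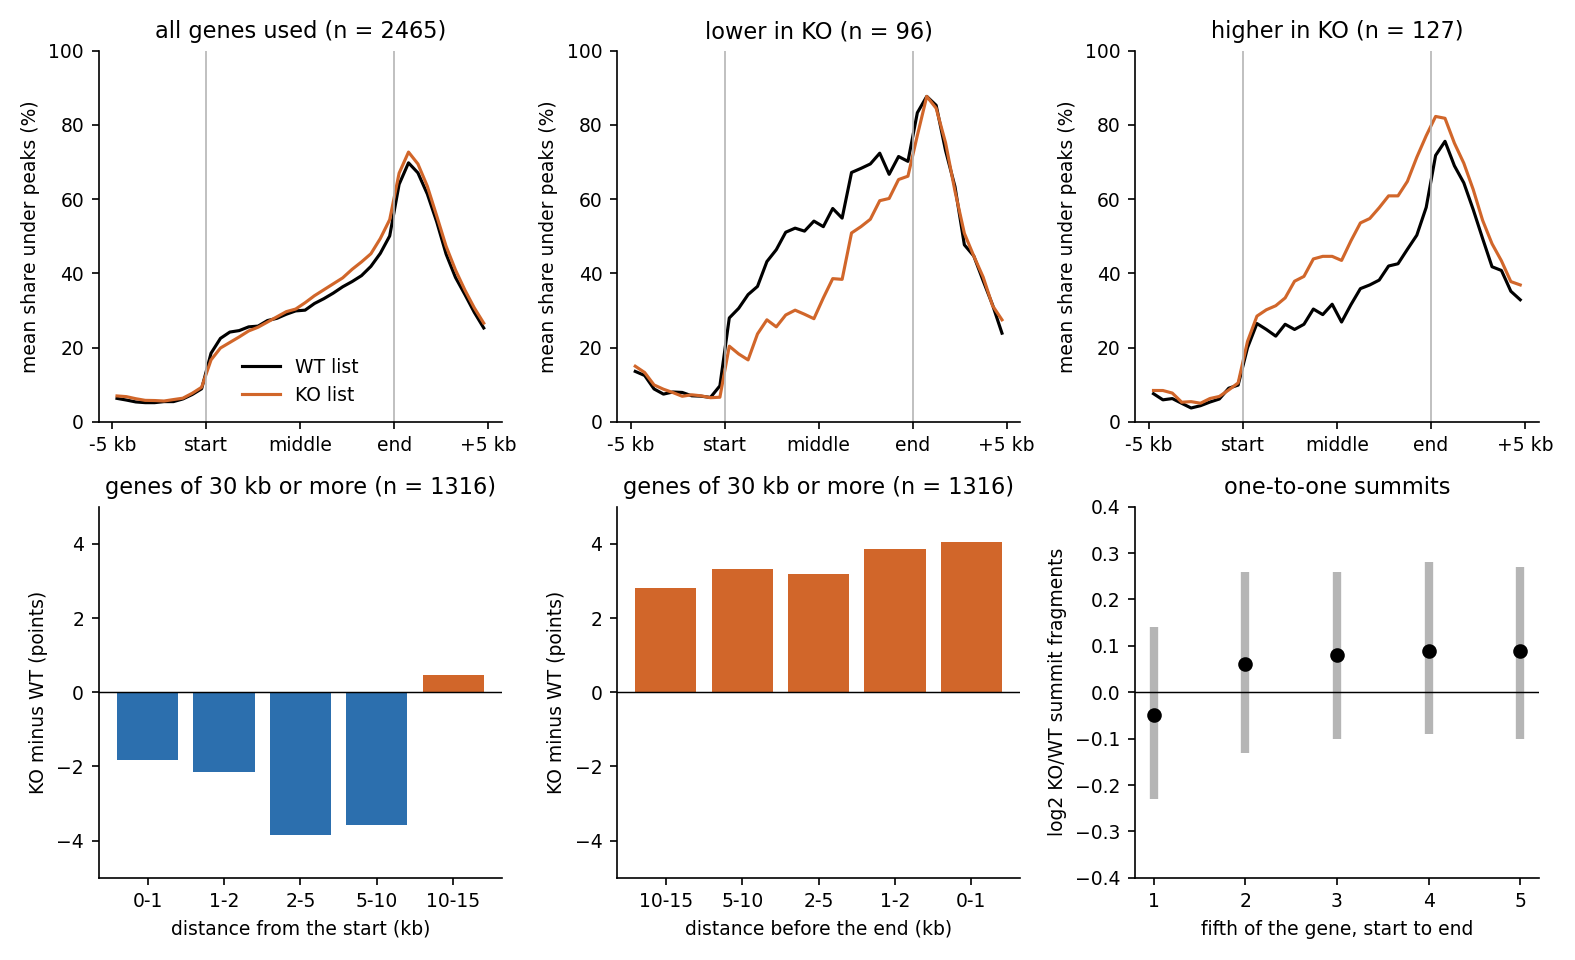
Upper row: mean share of bases under S2P peaks (%) from 5 kb before the start to 5 kb past the end of the gene, with gene length scaled to 20 parts, in the WT list (black) and the KO list (orange), for all 2465 genes and for those at least 10 points lower (96) or higher (127) in KO. Lower row: KO minus WT (points) by distance from the start and before the end in 1316 genes of at least 30 kb, negative within 10 kb of the start and positive before the end, and log2 KO over WT of one-to-one summits in 5 equal parts of the gene (points, medians; bars, quartiles).

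Gene by gene, the lists were close. Of the 19304 genes, 9986 had coverage in at least 1 list, 9492 of them in both, 211 in WT alone and 283 in KO alone. The median coverage was 27.1% in WT and 29.5% in KO, the median difference 0.67 points, and 61.0% of genes were higher in KO by any amount. Covered for at least 50% in both lists were 3045 genes (15.8% of the 19304), in WT alone 180 and in KO alone 264. Coverage was at least 10 points lower in KO at 390 genes (3.91% of those with coverage) and at least 10 points higher at 575 (5.76%). These shares are the background for the counts below, and "lower" or "higher" by 10 points is a threshold of size, with no test behind it. Just inside and outside it lay Prpf19 (-10.03) and Zcchc18 (-9.99) on the lower side.

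The balance of lower and higher genes depended on how much each list covered. With 32078 of the weakest KO peaks left out, so that both lists covered the same length, 618 genes were at least 10 points lower and 321 higher. Because this setting takes away KO peaks alone, the lower genes had to keep their call, while 321 of the 575 higher genes kept theirs. Gene length mattered as well. Among genes of 2 to 5 kb 11.7% were lower and 11.8% higher by 10 points, among genes of 5 to 10 kb 9.14% and 7.08%, and among genes of 30 to 100 kb 0.439% and 4.59%. In covered bases, KO exceeded WT by 7.91% in genes of 30 to 100 kb and by 11.1% in genes over 100 kb, against -0.43% in genes of 5 to 10 kb.

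Summit heights moved with coverage. Of the 91 lower genes with at least 5 one-to-one summits 12 had a median log2 ratio above 0, and of the 247 higher genes 223 did, against 2159 of the 3250 genes within 10 points. The medians over genes were -0.16, 0.16 and 0.05. Coverage and summits come from the same lists and are not independent. Position along the gene was measured only in lower and higher genes with a known strand and no other protein-coding gene within 5 kb. The 96 lower genes of this kind lost most over their first 50%, from 42.8% to 24.8%. Past the end of these 96 genes the lists were alike, and the first 2 kb had 82.3% and 81.2%. The 127 higher genes of this kind gained most over the part nearer the end, from 40.9% to 59.4%.

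**Figure D2:**
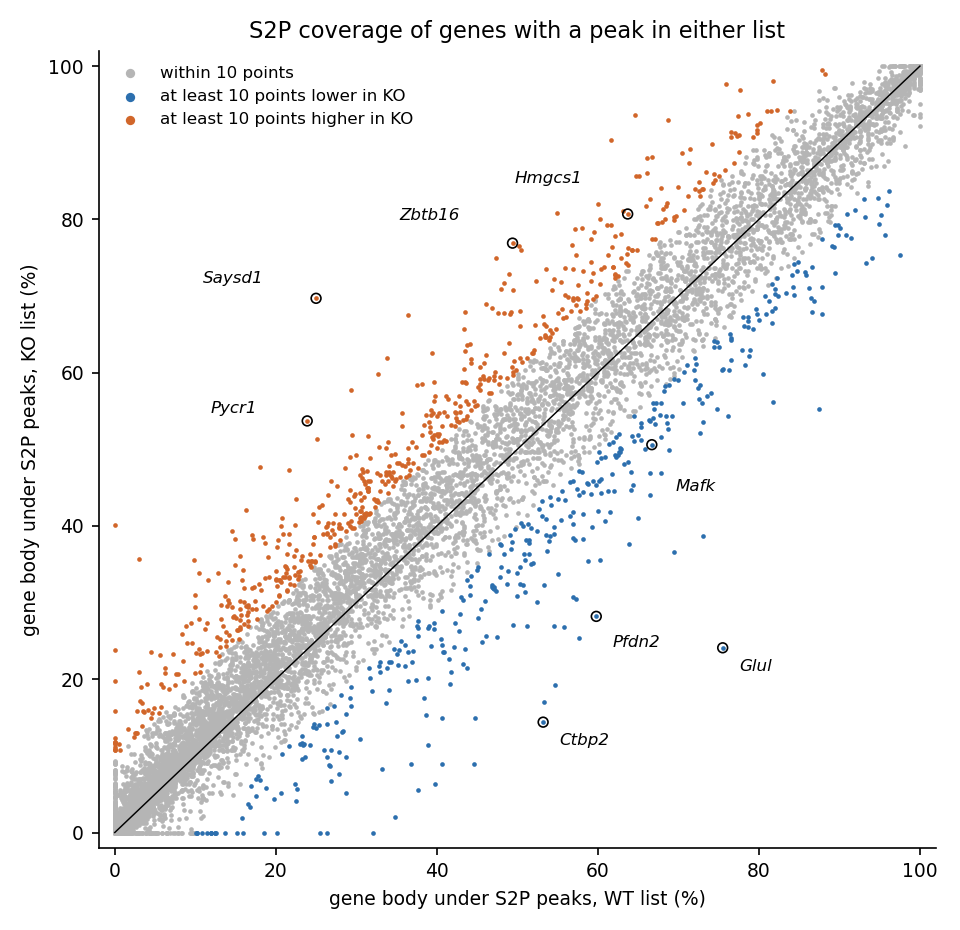
S2P coverage (% of gene length under peaks) of 9986 genes in the WT list (horizontal axis) and the KO list (vertical axis), 1 point per gene, with genes at least 10 points lower in KO in blue (390) and at least 10 points higher in orange (575). Glul and Ctbp2 lie farthest below the diagonal among the circled genes, and Saysd1 and Pycr1 far above it.

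The widest difference was at Glul, which encodes glutamine synthetase (chromosome 1, 153899929 to 153909723, 9.79 kb). Its coverage was 75.5% in WT and 24.1% in KO, and the difference ran along most of the gene. Of 10 equal parts, part 2 had 60.0% in WT and 0% in KO, and part 7 had 87.4% and 0%. WT had 10 summits in the gene, the first peak beginning 17 bp past the start with 73 fragments (exact Poisson 95% interval 57.2 to 91.8). The KO list had no peak in the first 30% of the gene, and its first peak began 3071 bp past the start with 25 fragments (16.2 to 36.9). In the last 10% of the gene coverage was 94.4% and 86.8%, and the peak across the gene end held in WT 84 fragments (67.0 to 104) and in KO 78 (61.7 to 97.3), intervals that overlap. So the 2 lists were alike at the end of Glul and differed over its body. The RefSeq promoter window of GRCm38.p6, from 250 bases before to 50 after the start, is shown because the WT S2P list had a peak reaching into it and the KO list had none (chr1:153899679-153899978, plus strand). RUNX1 had 1 peak in it in both genotypes and GATA2 had none.
Glul: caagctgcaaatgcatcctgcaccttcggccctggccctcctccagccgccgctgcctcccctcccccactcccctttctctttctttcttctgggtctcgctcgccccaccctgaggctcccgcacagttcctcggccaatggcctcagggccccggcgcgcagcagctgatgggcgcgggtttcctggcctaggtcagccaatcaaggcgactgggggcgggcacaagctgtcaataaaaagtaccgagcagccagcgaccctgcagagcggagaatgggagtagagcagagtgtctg

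Ctbp2, a corepressor that binds histone deacetylases and demethylases (chromosome 7, 132986998 to 133124009, 137 kb), lost the most covered sequence. Its coverage was 53.2% in WT and 14.4% in KO, which is 53.2 kb less, and 150 WT summits stood against 52 in KO. The peak across the end of the gene held in WT 124 fragments (103 to 148) and in KO 131 (110 to 155), intervals that overlap. Over 29 one-to-one summits WT had 1071 fragments and KO 733, with a median log2 ratio of -0.58, the lowest of the named genes with at least 5 such summits. In the first 10% of the gene coverage was 73.1% and 13.5%, in the last 10% 90.3% and 62.8%. The gene overlaps another protein-coding gene, and its 2 promoter windows in the RefSeq table, both inside the annotated span, each met an S2P peak in WT and none in KO. Its paralog Ctbp1 was at 90.9% and 85.7%.

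The next 10 genes by size of the fall, among genes covered for at least 50% in 1 list, were short, from 2.11 to 14.3 kb. They were Ubqln2, a ubiquitin receptor (53.3% and 17.0%), Pet117, a chaperone of cytochrome oxidase assembly (54.7% and 19.2%), and Ccdc71l (73.0% and 38.7%). After them came Fzd9, a Wnt receptor (69.4% and 36.6%, with no summit left in KO), Nradd, the histone gene H2bc4, Pfdn2, a subunit of the prefoldin chaperone (59.8% and 28.2%), Fam98c, Gdpd3 and Tmem238. The heights of peaks left in KO varied: 3 one-to-one summits of Ccdc71l held 266 and 262 fragments (median log2 ratio -0.08), 3 of H2bc4 held 373 and 352 (-0.30), and 1 of Fam98c held 59 and 41 (-0.54). Pet117, Pfdn2 and Fam98c overlap other protein-coding genes and share peaks with them. Among long genes the largest losses after Ctbp2 were 25.8 kb in Rabgap1l, 25.3 kb in St6galnac3, 17.1 kb in Rere and 14 kb in Osbpl8, an oxysterol-binding protein of the endoplasmic reticulum (35.6% and 25%). Osbpl8 had 1389 WT and 1207 KO fragments over 39 one-to-one summits, a median log2 ratio of -0.29.

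In the other direction Saysd1, a gene of a protein of the endoplasmic reticulum (chromosome 14, 20075636 to 20083172, 7.54 kb), went from 25% in WT to 69.7% in KO. Of 10 equal parts of the gene the first 2 were lower in KO, at 50.1% and 38.1% and then 74.5% and 72.3%, whereas the last had 34.0% and 85.8%. Reep2 (36.4% and 67.5%), Pycr1, Pcp2, Egfl8, Zbtb26, Mettl27 and the mitochondrial prolyl-tRNA synthetase gene Pars2 (47.3% and 74.9%) followed among genes covered for at least 50% in 1 list, then Zbtb16, Coasy, Mrpl10 and Fxyd4. All of these but Zbtb16 were 11.0 kb or shorter, and Pcp2, Egfl8 and Zbtb16 overlap other protein-coding genes.

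Zbtb16, which encodes the zinc finger repressor PLZF of progenitor cells, was the long gene with the largest gain (chromosome 9, 184 kb). Its coverage was 49.4% in WT and 76.9% in KO, 50.7 kb more. Over 52 one-to-one summits WT had 2153 fragments and KO 2673, a median log2 ratio of 0.29. Each of 10 equal parts of the gene was higher in KO. RUNX1 had 18 peaks in WT and 33 in KO in the gene or within 5 kb of it, and GATA2 48 and 53, each from samples without replicates. The other large gains were 38.8 kb in Pde4d, a cAMP phosphodiesterase, 35.8 kb in Msi2, an RNA-binding protein of hematopoietic progenitors (67.7% and 77.1%), 35.4 kb in Snd1, 34.9 kb in Garem1 (18.4% and 38.6%) and 30.8 kb in Med13l, a subunit of the Mediator kinase module (43.6% and 58.7%). RUNX1 peaks in WT and KO numbered 21 and 27 at Pde4d, 27 and 36 at Msi2 and 7 and 12 at Snd1. At Garem1 they numbered 19 and 18, and at Med13l 11 and 12. Over the 575 higher genes KO had 1.25 times as many RUNX1 peaks as WT, and over the 390 lower genes 1.28 times. Over 121 one-to-one summits Msi2 had 4290 WT and 4768 KO fragments, a median log2 ratio of 0.14. In Msi2 each of 10 equal parts, from 82.9% and 87.2% in the first to 68.9% and 74.1% in the last, was higher in KO.

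**Figure D3:**
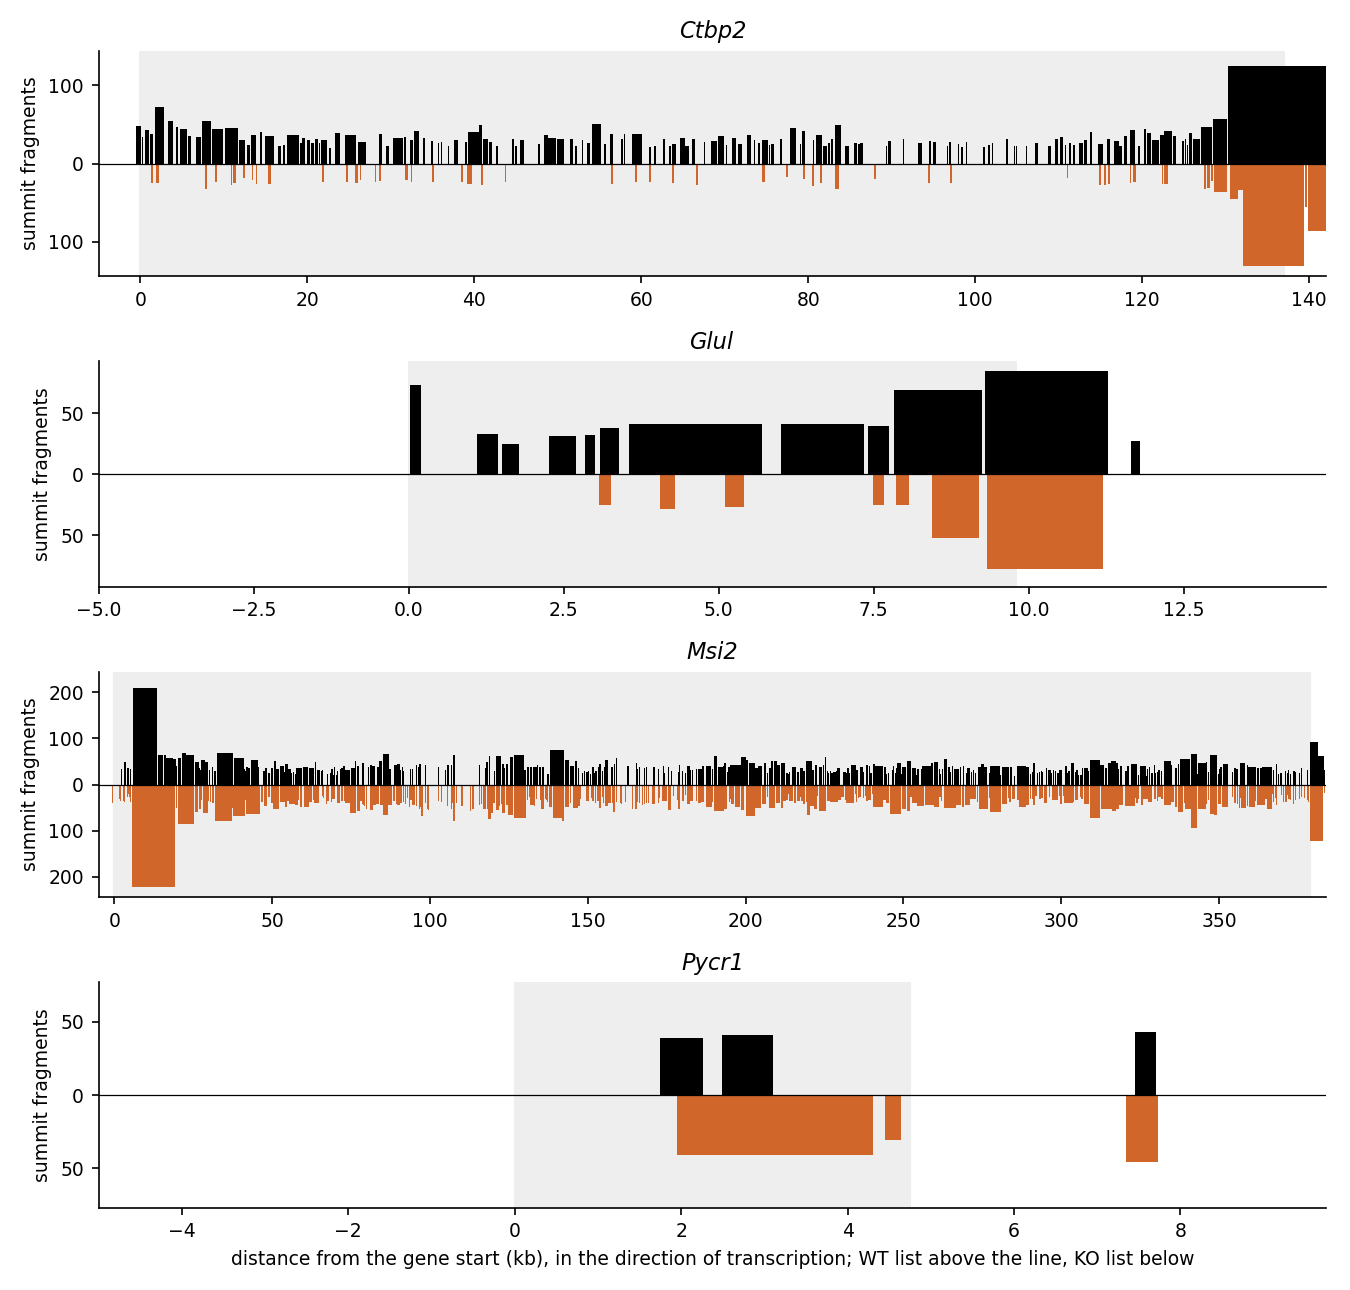
S2P peaks at Ctbp2, Glul, Msi2 and Pycr1 by distance from the gene start (kb) in the direction of transcription, with the gene shaded; bars above the line are WT peaks, bars below it (orange) are KO peaks, their width is the peak's width and their height the fragments at its summit. Ctbp2 had 150 summits in WT and 52 in KO, and the Glul peak across the gene end had 84 and 78 fragments.

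Among genes of cholesterol and fatty acid synthesis more were higher in KO than lower. Of 28 listed genes 26 had coverage, and 9 of the 26 were at least 10 points higher and 0 were lower, against 5.76% and 3.91% of all genes. Their median difference was 5.9 points against 0.7 over all genes with coverage, and 20 of the 26 were higher by any amount. The list was chosen with earlier results of these data known, so its counts are a description. The list's genes with coverage had a median length of 18.6 kb, and among all genes of 10 to 30 kb 6.06% were at least 10 points higher. With both lists cut to the same covered length 3 of the 26 (Hmgcs1, Idi1 and Nsdhl) remained at least 10 points higher, and the median was 4.4 points.

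The genes that were higher run through the pathway. Hmgcs1, the enzyme that makes HMG-CoA, had 63.7% in WT and 80.7% in KO, and Mvd, which makes isopentenyl diphosphate, 3.38% and 13.9%. Idi1, the isomerase of that 5-carbon unit, had 77.0% and 91.3%. Fdft1, squalene synthase, was at 67.5% and 79.5%, and Lss, which closes the sterol ring, at 69.9% and 84.2%. The late enzymes Nsdhl (23.3% and 36.1%), Sc5d (64.2% and 76.0%) and Dhcr7 (30.6% and 41.2%) and the fatty acid desaturase Scd1 (69.5% and 80.3%) were higher as well. Of the transcription factors of the pathway, Srebf2 had 75.8% and 82.1% and Srebf1 86.1% and 83.1%. At Tm7sf2, a sterol reductase, the value was lower in KO, 75.2% and 68.4%.

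Hmgcs1 had the largest difference of the list (chromosome 13, 119690351 to 119708260, plus strand). Of 10 equal parts the first had 0% in both lists, the next 26.7% in WT and 79.6% in KO, and the last 95.1% and 100%. Its strongest summit had 105 and 107 fragments, so the highest peak was alike and the length covered was not, although only 2 summits paired one to one, with 79 and 109 fragments. With peaks within 500 bp joined its difference was 9.3 points in place of 17.0. Its RefSeq promoter window (chr13:119690101-119690400, GRCm38.p6) is printed because it was the 1 window among those of 19 list members found in the RefSeq table with the letters TCACNCCAC on either strand, a form of the sterol regulatory element. These letters, in capitals below, begin 137 bases before the start, and 1.19% of 21263 promoter windows hold them. S2P had no peak in the window, GATA2 none, and RUNX1 had 1 in both genotypes.
Hmgcs1: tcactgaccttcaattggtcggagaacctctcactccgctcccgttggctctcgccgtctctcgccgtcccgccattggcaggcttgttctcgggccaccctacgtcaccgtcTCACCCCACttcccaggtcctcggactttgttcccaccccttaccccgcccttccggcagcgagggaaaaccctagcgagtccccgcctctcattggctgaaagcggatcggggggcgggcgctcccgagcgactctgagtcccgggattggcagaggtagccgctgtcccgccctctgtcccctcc

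Genes of amino acid supply and of the integrated stress response, the programme that ATF4 drives when amino acids run short, differed in both directions. Of 34 listed genes 27 had coverage, with a median difference of 2.1 points. Of the 27, 5 were at least 10 points higher in KO and 2 lower, against 5.76% and 3.91% of all genes with coverage. The list was chosen with earlier results of these data known and holds Glul and Pycr1, both among the largest changes. Its counts are therefore a description. Pycr1, which makes proline, had 23.9% and 53.7%, and Pck2, the mitochondrial phosphoenolpyruvate carboxykinase, 17.1% and 38.8%. Ddit4, an inhibitor of mTORC1, had 13.2% and 29.7%, Mthfd2, of mitochondrial folate metabolism, 39.0% and 53.5%, and Sesn2, a leucine sensor, 34.5% and 47.0%. The lower genes were Glul, above, and Atf5 (36.9% and 22.3%). Atf4 and Ddit3 were covered for 100% in both lists, Asns had 99.7% and 99.6%, and Trib3 had 89.0% and 89.1%. With the lists cut to the same covered length 4 remained higher by 10 points and the same 2 lower.

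**Figure D4:**
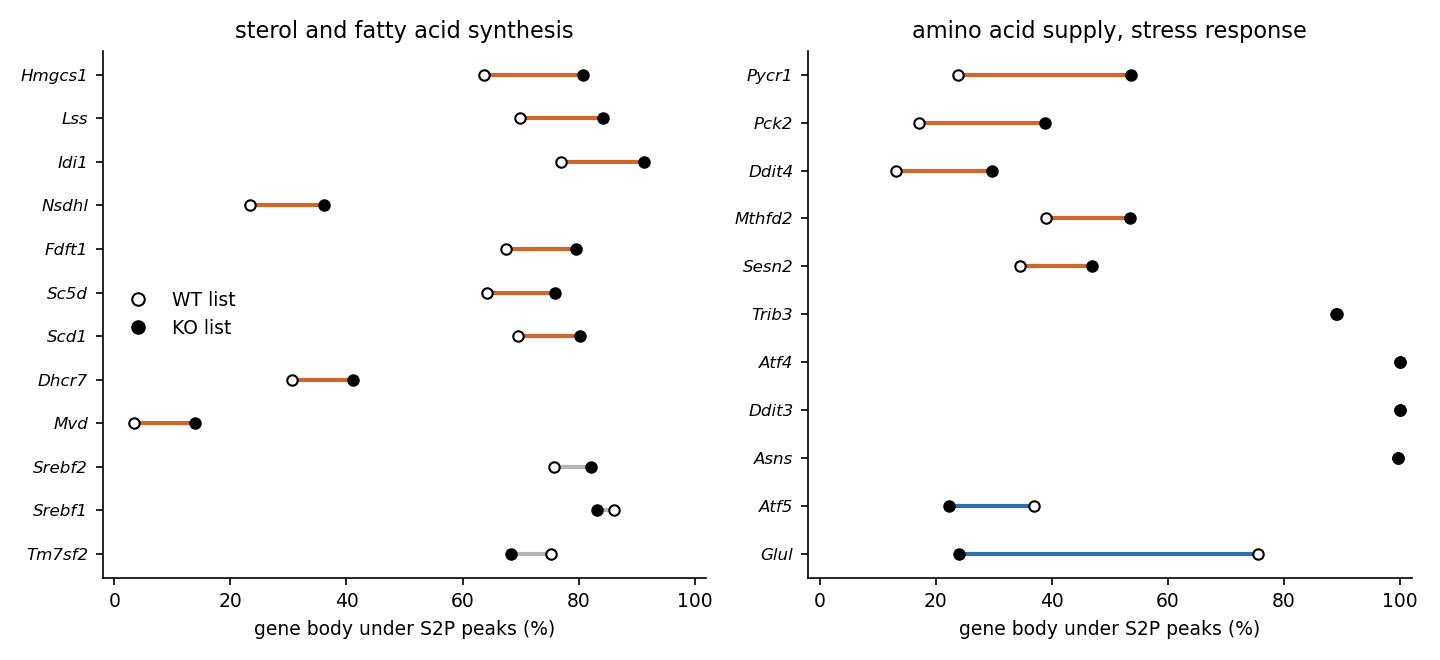
S2P coverage (% of gene length) in the WT list (open circles) and the KO list (filled circles) of the 12 genes of sterol and fatty acid synthesis and the 11 of amino acid supply and the integrated stress response that the text describes; lines are orange where KO was at least 10 points higher and blue where it was at least 10 points lower. Of the former 9 are orange and 0 blue, of the latter 5 and 2.

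Pycr1 (chromosome 11, 120638998 to 120643748, minus strand) and Pck2 are shown by their promoter windows because both hold an amino acid response element, searched as TGATGNAA on both strands. These letters were in windows of 11 of the 28 list members in the RefSeq table and in 3.60% of all 21263 windows. Many of those members belong to the list because ATF4 is known to act on them, so the share is no finding about KO. In both genes the letters, in capitals, begin 103 bases before the start (Pycr1, chr11:120643699-120643998, minus strand; Pck2, chr14:55540016-55540315, plus strand; GRCm38.p6). Of the 7 members with the letters and with coverage 2 were at least 10 points higher and 0 lower, median 1.8 points. Of the 16 without them 3 were higher and 2 lower, median 3.3 points.
Pycr1: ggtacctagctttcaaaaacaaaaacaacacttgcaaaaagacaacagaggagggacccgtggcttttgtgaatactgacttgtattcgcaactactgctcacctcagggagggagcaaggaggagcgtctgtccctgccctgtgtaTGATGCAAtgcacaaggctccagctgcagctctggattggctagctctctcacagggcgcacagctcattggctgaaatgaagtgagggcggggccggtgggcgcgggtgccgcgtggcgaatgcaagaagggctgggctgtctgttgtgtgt
Pck2: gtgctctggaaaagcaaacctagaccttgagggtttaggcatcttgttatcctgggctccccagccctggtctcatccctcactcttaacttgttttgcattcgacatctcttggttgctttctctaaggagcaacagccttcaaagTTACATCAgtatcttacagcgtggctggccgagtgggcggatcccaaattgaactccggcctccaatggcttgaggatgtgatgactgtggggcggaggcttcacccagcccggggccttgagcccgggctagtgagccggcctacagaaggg

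At Pycr1 the S2P lists differed over the part nearer the end. WT had 2 peaks in the gene, with 39 fragments (27.7 to 53.3) and 41 (29.4 to 55.6), and no coverage in the last 30% of the gene. The KO list had 1 peak of 2.36 kb from 1947 bp past the start, also with 41 fragments (29.4 to 55.6), and a second with 31 (21.1 to 44.0). The heights were thus alike, and the difference was in how far the peaks reached.

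Genes of the machinery that pauses and releases polymerase were examined because S2P is its product. Of 47 genes with coverage 4 were at least 10 points lower in KO and 2 higher, with a median difference of 1.0 points. Among all genes with coverage 3.91% were lower and 5.76% higher. The list was chosen with earlier results of these data known. The products of the 4 lower genes act in pausing, a grouping made after their values were seen. Nelfcd (63.2% and 48.1%), Nelfe (61.4% and 50.7%) and Nelfb (23.2% and 12.6%) encode subunits of the negative elongation factor NELF, and Polr2m (89.1% and 76.5%) encodes Gdown1, a protein bound to paused polymerase. The remaining NELF subunit, Nelfa, had 26.8% and 31.4%. The higher genes were Ccnh, the cyclin of the CDK7 kinase of TFIIH (57.3% and 68.8%), and Ell3, an elongation factor (55.6% and 68.3%). With the lists cut to the same covered length these were 8.6 and 5.5 points higher. In that setting 6 genes of the list were at least 10 points lower, the 4 named above with Ccnt2 and Supt5. With peaks joined Nelfe differed by -7.7 points. Among peaks with a −log10 q of at least 5, Nelfb differed by -1.6 points and Nelfe by -0.1, so both calls rest on weaker peaks. The serine 2 kinase genes Cdk12 (54.1% and 59.5%) and Cdk13 (61.2% and 70.3%) differed by less than 10 points. The 4 lower genes are 5.98 to 11.8 kb long, and among all genes of 5 to 10 kb 9.14% were at least 10 points lower. Among those of 10 to 30 kb, the class of Nelfb and Nelfcd, 3.90% were. Few summits could be compared one to one in them, and in Nelfb 3 such summits had a median log2 ratio of 0.46, opposite to its coverage.

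Erythroid genes were for the most part alike. Their counts are to be read against 3.91% lower and 5.76% higher by 10 points among all genes with coverage. The globin genes are shorter than 2 kb and are not among the genes measured. Of 18 heme synthesis genes 1 was at least 10 points lower, Ppox, and 1 higher, Abcb10, a mitochondrial transporter (40.1% and 51.7%). Of 24 genes of the red cell membrane and skeleton with coverage 2 were higher and 0 lower. Of 17 iron genes with coverage Slc40a1, the iron exporter ferroportin, was higher (42.8% and 57.0%) and Isca1, of iron-sulfur cluster assembly, lower (44.3% and 33.5%). With the lists cut to the same covered length no gene of these 3 lists was 10 points higher, with Abcb10 at 9.5 and Slc40a1 at 8.6 points. With peaks within 500 bp joined Slc40a1 was 3.2 points higher, and among peaks with a −log10 q of at least 5 Ppox was 1.3 points higher rather than lower and Isca1 differed by -3.7 points. The medians of the 3 lists were -0.4, 2.2 and 1.0 points.

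Among 34 erythroid regulators with coverage 2 (5.88%) were at least 10 points lower in KO and 1 (2.94%) higher, near the 3.91% and 5.76% of all genes with coverage. Mafk, the small MAF protein that pairs with NF-E2 p45, had 66.7% in WT and 50.6% in KO. Ldb1, the bridging protein of the GATA1, TAL1 and LMO2 complex, had 47.1% and 31.8%, and its 6 one-to-one summits held 361 and 297 fragments, a median log2 ratio of -0.29. Stat5b, which relays erythropoietin signals, was 10.0 points higher (31.6% and 41.6%), and 5.6 points higher with the lists cut to the same length. Bcl11a, a repressor of fetal-type globin genes, had 79.3% and 89.0%, and its 24 one-to-one summits had a median log2 ratio of 0.36. The list's median difference was 0.6 points.

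Among genes of mast cells and basophils, lineages that GATA2 promotes, 2 of the 12 with coverage were at least 10 points lower in KO and 0 higher. Of all genes with coverage 3.91% were lower and 5.76% higher by 10 points, and 3718 of 9986 were lower by any amount. The median of the 12 was -2.3 points, and 11 were lower by any amount, 6 of them by 2.3 points or less, while 13 of the 25 genes of at least 2 kb had 0% in both lists. Cpa3, a mast cell protease (chromosome 3, 20215616 to 20242209), had 54.5% and 39.8%. Its 5 one-to-one summits held 186 and 137 fragments, a median log2 ratio of -0.50. Of 10 equal parts of the gene, part 4 had 69.1% and 11.1%, part 8 had 100% in both, and part 10 had 92.6% and 47.0%. Cyp11a1, which cleaves the cholesterol side chain, had 25.4% and 14%. Whether fewer cells with these genes active or less polymerase per cell lay behind a value cannot be told apart in bulk ChIP-seq.

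Of 13 genes of RUNX1 and its partners with coverage none passed 10 points. By any amount 12 were higher in KO, where 61.0% of all genes with coverage were, with a median of 4.5 points. With equal covered length 9 were, against 46.6% of all genes, with a median of 1.1 points. Runx1 itself had 80.6% and 89.0%, with 2147 and 2416 fragments over 39 one-to-one summits, and the coactivator Crebbp 17.2% and 24.4%. The median length of these genes, 74.2 kb, lies in the class where KO covered 7.91% more bases. Of 42 chromatin remodelling genes with coverage Smarcc2, of the BAF complex, was lower (66.8% and 56.0%) and Mta1, of the NuRD complex, higher (72.0% and 83.9%, or 9.3 points with the lists cut to the same length). Each is 2.38% of the list, against 3.91% lower and 5.76% higher among all genes with coverage. Among the other CHD genes Chd4 had 91.0% and 90.5%, Chd8 42.8% and 49.2% and Chd2 87.0% and 93.0%.

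**Figure D5:**
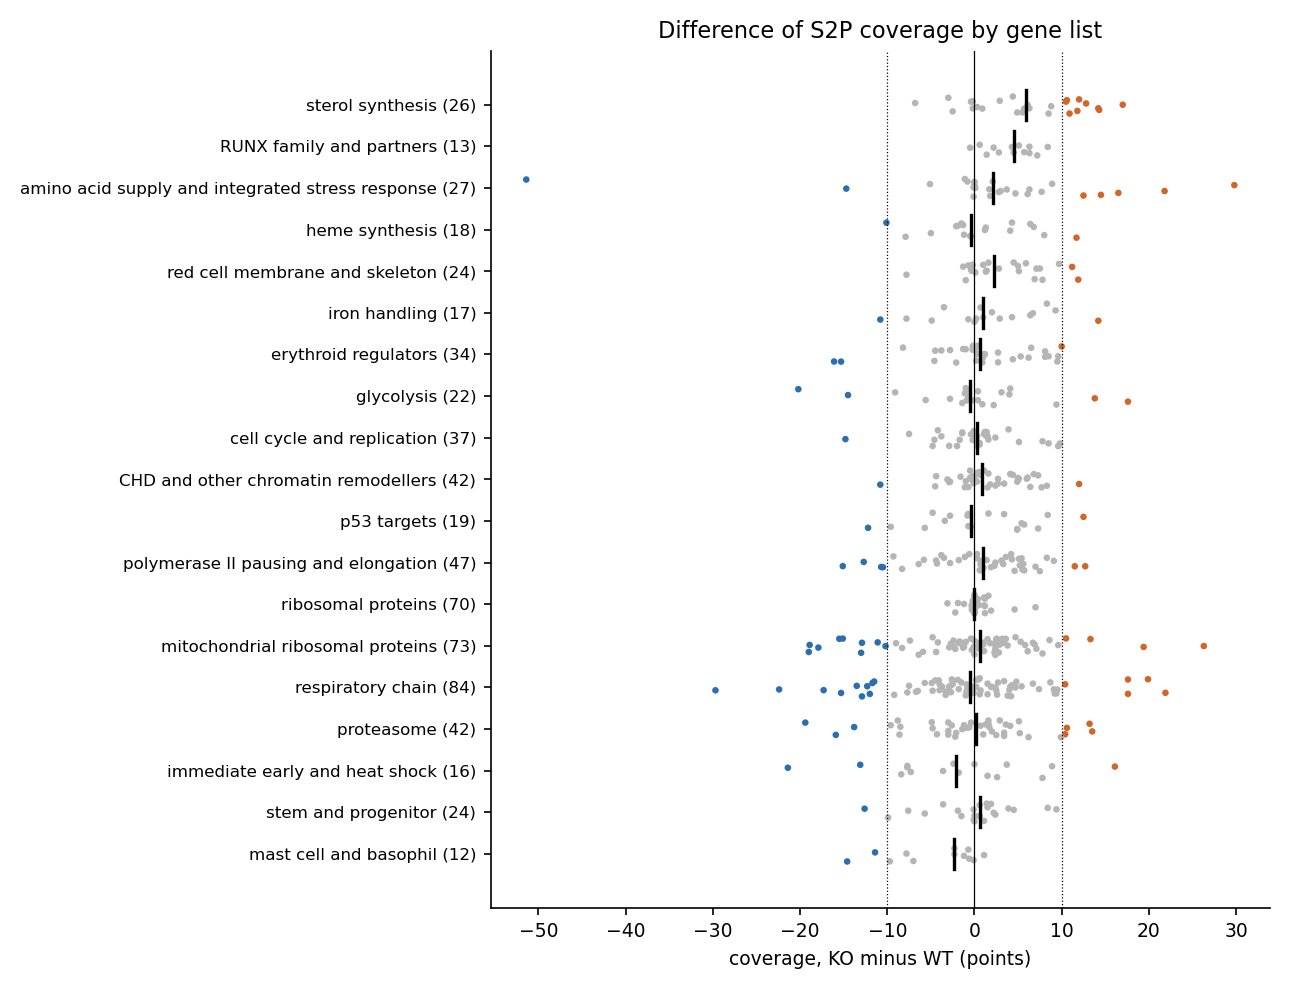
Difference of S2P coverage (KO minus WT, points) of each gene with coverage in 19 gene lists, with the number of genes in brackets and the median as a black line; blue points are at least 10 points lower in KO and orange points at least 10 points higher (dotted lines). Sterol synthesis has 9 orange points and no blue one, and 11 of 12 mast cell and basophil genes lie below 0, 2 of them blue.

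Short genes of the mitochondrion and the proteasome scattered in both directions. Of 84 genes of the respiratory chain with coverage 10 were at least 10 points lower and 5 higher, with a median of -0.5 points. Ndufa13 of complex I had 44.7% and 15.0%, and Atp5e of ATP synthase 66.1% and 88.0%. Of 73 mitochondrial ribosomal protein genes 9 were lower, led by Mrpl27 (64.4% and 45.4%), and 4 higher, led by Mrpl10 (25.1% and 51.4%). Of 42 proteasome genes 3 were lower and 4 higher. The first 2 lists have median lengths of 7.82 and 8.12 kb, and their shares are to be read against 9.14% lower and 7.08% higher among all genes of 5 to 10 kb. The proteasome genes have a median length of 12.5 kb, and among all genes of 10 to 30 kb 3.90% were lower and 6.06% higher. Cytosolic ribosomal protein genes differed little: 68 of 72 were covered for at least 50% in both lists, none passed 10 points, and the 70 with coverage ranged from -3.1 to 7.0 points.

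Further genes passed 10 points in smaller lists. Counts in these lists are to be read against 3.91% lower and 5.76% higher among all genes with coverage. The lists were chosen with earlier results of these data known, so their counts are a description. Slc16a1, the lactate transporter MCT1, had 87.8% and 67.6%, with 544 and 449 fragments over 11 one-to-one summits, and Pgk1 50.8% and 36.3%. The glycolytic enzyme Pfkp, in contrast, had 44.2% and 61.8%, and Pdk1, a kinase that holds back pyruvate dehydrogenase, 24.8% and 38.5%. The immediate early genes Ier5 (55.1% and 33.7%) and Btg1 (44.1% and 31.0%) were lower and Jund (66.5% and 82.6%) higher. Hhex, a homeobox gene of progenitors, had 85.7% and 73.1%, Nbeal2, needed for platelet granules, 40.8% and 23.5%, and Ccne1, cyclin E1, 76.5% and 61.6%. These were the single members past 10 points among 24 stem and progenitor, 7 megakaryocyte and 37 cell cycle genes with coverage, whose median differences were 0.6, 0.0 and 0.3 points. Of 32 autophagy genes Becn1, of the kinase complex that starts autophagosomes (42.4% and 54.7%), and the protease gene Atg4b (54.3% and 65.2%) were higher, and Map1lc3b, the substrate of that protease (46.5% and 36.3%), and Ubqln2 lower. Becn1 was 4.7 points higher with peaks joined, and Atg4b 8.1 with the lists cut to the same length. Of 19 p53 target genes Trp53inp1 was lower (49.2% and 37.0%) and Sesn2 higher. Of 23 genes of Wnt and TGF-beta signalling Fzd9 and Ctbp2 were lower and 0 higher.

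RUNX1 peaks were about as frequent at genes with lower as with higher S2P coverage. RUNX1 had a peak in or within 5 kb of the gene in both genotypes at 88.7% of the 390 lower genes, 87.3% of the 575 higher genes and 85.3% of those between, against 19% of genes without S2P coverage. KO had 1.28, 1.25 and 1.26 times as many RUNX1 peaks as WT at the 3 classes. The RUNX1 and GATA2 samples had no replicates, so their peak numbers carry no spread, and the part of depth in them was not tested. GATA2 was present in both genotypes at 70.3%, 77.6% and 81.6% of them. The lower genes were shorter, with a median length of 8.40 kb against 14.6 kb for the higher genes and 25 kb between. On chromosome 5, KO had more factor peaks than on the other autosomes and X (1.46 times the WT number for GATA2 and 1.34 times for RUNX1). Chromosome Y, left out of this comparison, had ratios of 1.23 and 1.57. In the S2P lists the ratio on chromosome 5 was 1.02, within the range of 0.98 to 1.1 of the other autosomes and X.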

How the data were processed

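S2P, GATA2 and RUNX1 were profiled by ChIP-seq, and 6 peak lists were used, all in GRCm38 (mm10). Bowtie2 2.2.1 and MACS2 2.1.0 are named, without roles, in the submitters' processing notes. Settings and the input behind each list are not given in the sources used here, and the deposited S2P lists are named for both replicates. The deposited score is 10 times the −log10 q. The deposited fold is the ratio of the summit pileup to the local background. Significance was deposited per peak as −log10 p and as −log10 q, with none above a q of 0.05, and summits as bp from the peak's start.

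From fold and p under the caller's Poisson model, the whole number of fragments at each summit and the local background were recovered (100% of summits within 0.005 of the deposited −log10 p, with the KO pileup scaled by 0.961). Intervals are exact Poisson or Clopper-Pearson at 95% and cover counting error only, since reads carry no molecular identifiers. Total depth is unknown. Coverage of a gene is the share of its bases under peaks, over the RefSeq span. Strand came from the RefSeq promoter table and was known for 8097 of 9986 genes with coverage (81.1%). Genes that overlap another (25.3% of those with coverage) share peaks with it, and the antibody does not tell strands apart. With 1 list per genotype no test was possible, and a call is a difference of at least 10 points.

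The genes and the 29 gene lists were chosen with earlier results of these data known. Named were Chd7, then the 12 largest falls and rises in points among genes covered for at least 50% in 1 list, the 8 largest in kb, the 8 lowest and highest summit ratios over at least 5 one-to-one summits, and in each list the genes past 10 points and up to 4 of high coverage. Other genes were named after their values were seen, as relatives, regulators or partners of these. Not every gene of these sets is described, and some are not reported here. Python 3.11.15 was used with numpy, pandas and scipy. The scripts were tested on simulated data, where fragment numbers, coverage and calls were recovered in 100.0% of cases. Alternatives were other peak thresholds, equal covered length, joined peaks, gene filters and other thresholds for calls. Lists of tRNA synthetases, NELF, Integrator and snRNP genes were added after the data were seen.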

Additional observations from a re-analysis of the deposited data

How the results depend on the processing

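No paired analysis was possible because each genotype has 1 S2P list for both replicates, and for the same reason no replicate could be left out. Leaving out the weakest KO peaks for equal covered length, which can only lower KO values, gave 618 lower and 321 higher genes, 284 genes covered for at least 50% in WT alone and 166 in KO alone, a median difference of -0.05 points in place of 0.67, and -3.83 points in the first 10% of the gene and 2.29 in the last 10%. Joining peaks within 500 bp gave 618 lower and 918 higher genes and a median difference of 0.33. Genes with a mean coverage of at least 10% had a median difference of 1.21. At 20 points 57 genes were lower and 57 higher. Centred on the median, 442 were lower and 490 higher. Covered for at least 25% in both lists were 5038 genes and for at least 75% 1490, with 170 in KO alone at 75%. Peaks overlapping by at least 50% of each were 44.5% of WT and 44.1% of KO. The first 10% of the gene was lower in KO (-3.83 to -1.41 points) and the last 10% higher (2.29 to 4.64) under each setting tried, chosen after the data were seen, including all genes with a strand. The median of the mitochondrial ribosomal protein genes, 0.55 points, became -1.24 with equal covered length and -0.12 when centred. For these shifts the cause was not tested beyond what the setting itself removes. Followed through up to 9 settings were 106 genes past 10 points, the largest changes and the list members, and 62 stayed past 10 points throughout. Leaving out chromosome 5, genes under 5 kb or overlapping genes cannot change the value of a gene that is kept. Equal covered length and centring cannot undo a lower call. The 62 therefore rest only on the settings that could undo a call. With equal covered length 19 of the 50 higher genes passed below 10 points. With joined peaks 8 of the 50 higher and 6 of the 56 lower genes did, among them Hmgcs1 (9.3), Ddit4 (5.8), Scd1 (1.0), Slc40a1 (3.2), Atf5 (-9.2) and Hhex (-9.9). Among peaks with a −log10 q of at least 5, 23 of the 106 did, and Ppox turned from -10.1 to 1.3. Summits rest on 34 or 35 fragments at the median, and genes near 100% in both lists cannot show a gain.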

Other observations

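The genes of aminoacyl-tRNA synthetases, which load tRNAs with amino acids, were looked at as a family after Pars2 was seen among the largest gains, so their count is a description. All 38 had coverage, with a median difference of 3.0 points against 0.7 over all genes. At least 10 points higher in KO were 9 and lower 0, against 5.76% and 3.91% of all genes with coverage. Besides Pars2, which prompted the list, the 9 were Cars (50.5% in WT and 76.0% in KO), Lars (44.1% and 63.8%), Sars (55.9% and 73.6%), Tars (30.7% and 47.4%), Farsb, Dars, Nars and Mars1, all for cytosolic enzymes. Cars had 256 WT and 317 KO fragments over 7 one-to-one summits, a median log2 ratio of 0.29. The lowest was Kars, for the lysine enzyme, with 76.3% and 70.2%. With the lists cut to equal covered length 6 were at least 10 points higher and 1 lower.

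Other families of RNA processing were chosen in the same way. Their counts are to be read against 3.91% lower and 5.76% higher among all genes with coverage. Of 18 spliceosomal snRNP protein genes with coverage 4 were at least 10 points lower in KO and 0 higher, with a median of -1.9 points: Snrpa (72.4% and 58.0%), Snrpc (62.7% and 49.7%), Snrpb (76.4% and 65.1%) and Snrpd3 (61.9% and 51.0%). These 4 genes are 7.75 to 17.4 kb long. Among all genes of 5 to 10 kb 9.14% were at least 10 points lower, and among those of 10 to 30 kb 3.90%. Of the 18 genes of Integrator, the complex that cleaves transcripts of paused polymerase and snRNAs, and its partners, 4 were at least 10 points higher and 0 lower, with a median of 1.6 points. They were Ints6l (32.6% and 46.9%), Ints6 (42.2% and 56.1%), Ints1 (35.7% and 48.0%) and Ints5 (68.3% and 80.0%). With equal covered length the snRNP genes had 6 lower and 0 higher and the Integrator genes 1 lower and 3 higher. The Integrator median was then 0.1 points, with 9 genes higher and 9 lower by any amount. Leaving out KO peaks alone can move these values only downward.

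Some genes with extreme summit ratios differed little in coverage. Nudt21, of the cleavage factor that chooses polyadenylation sites, was covered for 37.1% and 36.7%, yet its 5 one-to-one summits had a median log2 ratio of -0.41. Psmd12, of the proteasome lid, had 51.3% and 54.7% with -0.39 over 9 summits. On the other side Frg1 had 46.5% and 48.7% with 0.58 over 6. Other genes differed the same way in both measures. Eloa, of the elongin complex, had 45.0% and 37.0% with -0.46 over 6 summits, and Ly75 had 14.8% and 24.2%, with 476 WT and 708 KO fragments over 12 summits and a ratio of 0.49. Sytl5 was nearly bare in WT, with 12 summits over 0.954% of its 251 kb, against 62 summits over 8.72% in KO.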
